A study of Mus musculus with 36 samples.

Results

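The glutathione S-transferases described here are 10 genes chosen by name, not by their values: Gsta1, Gsta2, Gsta3 and Gsta4 of the alpha class, Gstm1, Gstm2 and Gstm3 of the mu class, Gstp1 of the pi class, Gstt1 of the theta class and Gstz1 of the zeta class. They are 10 of the 53715 gene identifiers in a table of liver read counts, and all 10 had enough reads to be tested. The 36 libraries came from male C57BL/6 mice aged 10 weeks. The Control group ate AIN93G, a purified rodent diet, the Red group ate feed with 10% red tomato powder, and the Tangerine group ate feed with 10% tangerine tomato powder, for 6 weeks from 4 weeks of age. Each diet had 12 libraries, every library with its own mouse number, and was read as 12 mice. The design text gives a group size that may be lower, and p-values measure the spread between these libraries. No genotype, transgene or drug differed between the groups, and all mice ate feed matched in macronutrients.

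Glutathione S-transferases join the tripeptide glutathione to electrophilic molecules, which makes them more soluble and lets transporters export them. Alpha, mu and pi enzymes take many foreign compounds and products of lipid peroxidation, theta enzymes act on small halogenated molecules, and the zeta enzyme is also a step of tyrosine breakdown. In rodent liver several of these genes are known to respond to plant chemicals and drugs through the transcription factor NRF2 and through nuclear receptors. The comparisons addressed whether tomato feeding, and the type of tomato, altered the transcripts of this family.

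Several of these genes are near-identical copies, which limits what a read count can tell, so the sequences come first. The coding sequences of Gsta1 (chromosome 9, 78230656 to 78242684, plus strand) and Gsta2 (chromosome 9, 78331018 to 78355788, minus strand) were 97.5% identical, and they agreed in every base from position 1 to 196 of the coding sequence. All gene positions are those of GENCODE release M21 on GRCm38. The shared stretch is printed because no read that falls inside it can be assigned to either gene.
Gsta1 and Gsta2, coding bases 1 to 196: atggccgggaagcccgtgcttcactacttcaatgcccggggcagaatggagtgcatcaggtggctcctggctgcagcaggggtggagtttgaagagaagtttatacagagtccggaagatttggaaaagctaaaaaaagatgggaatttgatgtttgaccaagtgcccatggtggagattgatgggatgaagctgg

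The 60 coding bases in which the pair differed most held 5 differences. They run from base 449 to 508 of both coding sequences, and capitals mark the bases that differ.
Gsta1: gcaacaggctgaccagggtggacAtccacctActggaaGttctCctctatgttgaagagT
Gsta2: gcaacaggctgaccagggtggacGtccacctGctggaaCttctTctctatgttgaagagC

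Gstp1 (chromosome 19, 4035407 to 4037985, minus strand) has a neighbour, Gstp2, with 98.1% identical coding bases and a shared run of 303 bases. The 60 bases with the most differences were the first 60 of the coding sequence, with 6 differing bases in capitals.
Gstp1: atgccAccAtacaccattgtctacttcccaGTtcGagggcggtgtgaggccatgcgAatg
Gstp2: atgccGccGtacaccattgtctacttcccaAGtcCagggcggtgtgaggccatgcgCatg

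Shared sequence was measured as the share of all 50-base runs of a gene's principal transcript that also occur in a transcript of another gene. It was 89.7% for Gsta1, most of it shared with Gm3776, an alpha class copy with 99.7% identical coding bases. The share was 64.2% for Gsta2 and 62.3% for Gstp1. Among the mu genes it was 28.8% for Gstm3, 23.1% for Gstm1 and 9.36% for Gstm2. Gstz1 shared 4.85% with Pomt2, the gene that overlaps its end on the other strand, and Gsta3, Gsta4 and Gstt1 shared none. How the authors counted reads that match several genes is not given in the sources used here, so the values of Gsta1, Gsta2, Gstp1, Gstm1 and Gstm3 are uncertain as values of single genes. Sums over the copies named with each sum are therefore given beside the single genes. If reads that match several genes were left out of the counts, a sum does not restore them.

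Gsta1 and Gsta2 were less alike upstream than in their coding sequences. In the 250 bases before the RefSeq start site (GRCm38.p6), Gsta1 and Gsta2 were 73.6% identical, whereas Gsta1 and Gm3776 were 94.4% identical. The upstream windows are printed because these genes varied together between mice, as described further on. The Gsta1 window is chr9:78230419-78230668 on the plus strand and the Gsta2 window is chr9:78347146-78347395 on the minus strand.
Gsta1 upstream: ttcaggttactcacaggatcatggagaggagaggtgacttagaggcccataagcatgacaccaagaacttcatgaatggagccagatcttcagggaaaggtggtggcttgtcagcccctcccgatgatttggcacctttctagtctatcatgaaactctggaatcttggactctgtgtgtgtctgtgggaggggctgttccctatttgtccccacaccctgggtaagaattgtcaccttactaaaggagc
Gsta2 upstream: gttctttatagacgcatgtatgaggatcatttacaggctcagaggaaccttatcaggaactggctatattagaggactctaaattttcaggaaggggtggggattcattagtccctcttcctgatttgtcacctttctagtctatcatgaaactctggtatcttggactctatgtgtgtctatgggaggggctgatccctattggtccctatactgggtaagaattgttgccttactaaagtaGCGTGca
Capitals mark GCGTG, the core of the element bound by the aryl hydrocarbon receptor, found once in the Gsta2 window and not in the Gsta1 window. Motifs were searched on both strands as fixed letters, and a match is a description of the letters only. GCGTG was present in the windows of Gsta2, Gstm1 and Gstp1 and in 28.2% of the 27025 mouse upstream windows of that length. The core of the antioxidant response element, TGACNNNGC, was present in that of Gsta3 among the 9 members with an entry and in 10.1% of all windows. The AP-1 site TGAGTCA was present in the windows of Gstp1 and of Gstp2 and in 4.43% of all windows.

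Total counts ranged from 21290169 to 33810573 per library. The 7 hepatocyte markers all had counts, and the lowest sum in a library was 87216 CPM (counts scaled to a common library size, as edgeR gives them). Sums of markers of other cells stood apart in several libraries: Red 186 (8 lymphocyte markers, 154.8 CPM, against a Red median of 3.54 CPM), Tangerine 192 and Red 199 (7 bile duct markers, 111 and 49.5 CPM, against at most 30.6 CPM in every other library) and Tangerine 216 (11 pancreas markers, 11.4 CPM). Of 7 stellate cell markers 6 had counts, with Lrat at 0, and their sum was 456 CPM in Tangerine 192, against at most 307 CPM elsewhere. Control 137 had the lowest total count and the lowest sums of 7 Kupffer cell and 7 endothelial markers. These sums were also low in Tangerine 225 (119 and 112 CPM) and Tangerine 242 (155 CPM for both), against Tangerine medians of 219.98 and 209 CPM. Tangerine 225 was the highest Tangerine library for Gsta3 and Gstt1, and Tangerine 242 for Gsta1, Gsta4 and Gstp1. The part of these markers in the members' values was not tested. Bulk RNA cannot tell fewer cells of a type from less RNA per cell.

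No member passed the test between any diets. With edgeR's quasi-likelihood test and Benjamini-Hochberg adjustment over 14068 genes, 0 of 10 members had an adjusted p under 0.05 in Red against Control, where 0.149% of all genes did. The count was also 0 of 10 when Tangerine was set against Control (0.0142% of all genes), when it was set against Red (1.71%) and when both tomato diets were averaged and set against Control (0.00711%). At an unadjusted p under 0.05 the members counted 1 for Red and Control (13.3% of all genes), 2 for Tangerine and Control (5.47%), 0 for the 2 tomato diets (15.1%) and 1 for their mean and Control (6.77%). These were Gsta1 in all 3 comparisons with Control, and Gsta4 in the one of Tangerine. By DESeq2 and by limma-voom the number with an adjusted p under 0.05 was 0 as well. The median log2 fold change of the members was 0.01 for Red and 0.12 for Tangerine, each against Control, and 0.07 between the tomato diets, and the medians of all genes were -0.0047, -0.012 and -0.0046. Every member overlapped between the diets in every comparison. The share of all genes that overlapped is not given here, so this describes the members only.

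**Figure D1:**
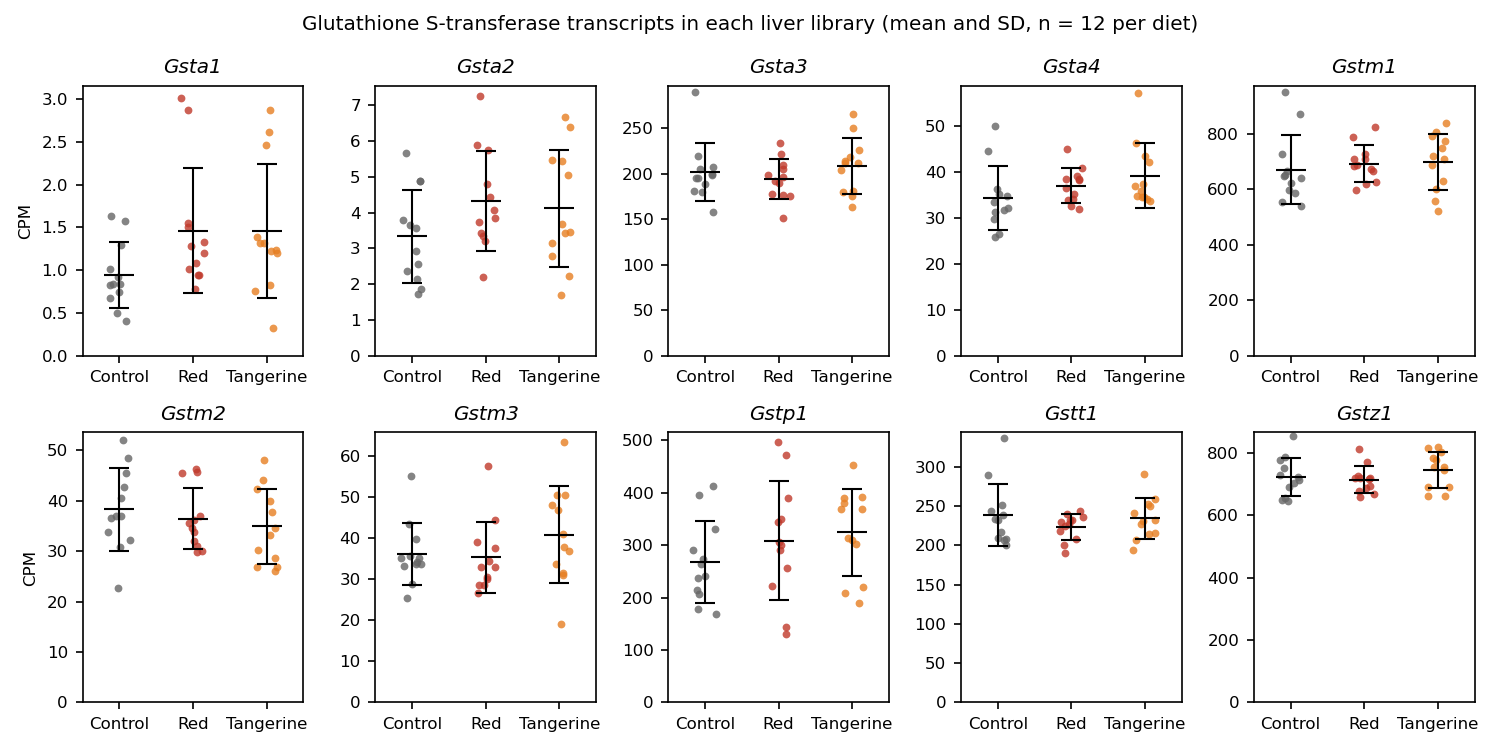
CPM of each of the 10 transcripts (vertical axes, from 0) in every library, grouped by diet, with the mean and SD of 12 libraries. The 3 diets overlap for every transcript, and the spread within a diet is widest for Gsta1 and narrow for Gstz1.

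Among the alpha class genes, Gsta1 had the largest estimated differences, at a very low level. Gsta1 encodes an enzyme with broad activity on electrophiles and lipid peroxides. Its lowest, median and highest values were 0.408, 0.841 and 1.63 CPM in Control, 0.786, 1.24 and 3.02 CPM in Red, and 0.331, 1.28 and 2.87 CPM in Tangerine. In counts that was between 9 and 107 reads per library. A few tomato libraries lay high, 2 of 12 in Red and 3 of 12 in Tangerine above every Control library, while the lowest library of all was a Tangerine one. The mean was 0.941 ± 0.384 CPM in Control, 1.46 ± 0.730 in Red and 1.46 ± 0.782 in Tangerine (SD, n = 12 each). The log2 fold change was 0.66 in Red (SE 0.270, 95% interval 0.11 to 1.20, adjusted p = 0.283 by edgeR) and 0.64 in Tangerine (SE 0.271, interval 0.09 to 1.19, adjusted p = 0.816).

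Some of the libraries that stood apart in marker sums were among those with the highest Gsta1. Tangerine 216, Control 137 and Tangerine 225 were not, at 1.39, 1.30 and 1.20 CPM, against a median of 1.20 CPM over all 36 libraries. Gsta1 was 3.02 CPM in Red 199, 2.87 CPM in Red 186 and 2.47 CPM in Tangerine 192, although Tangerine 242 and Tangerine 160, with sums of 20.3 and 24.5 CPM for bile duct markers, reached 2.87 and 2.62 CPM. Tangerine 242 was low in Kupffer cell and endothelial markers, as given above. Gm3776 followed, with its highest values in Red 199 (2.45 CPM) and Tangerine 192 (2.43 CPM). Without Red 186, Red 199 and Tangerine 192, left out together after seeing the data, the Gsta1 log2 fold change was 0.32 in Red and 0.55 in Tangerine. These 3 libraries held some of the highest Gsta1 values, so leaving them out lowers the difference whatever their cell content. The part of other cell types in the Gsta1 difference was not tested.

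Gsta2, whose enzyme has a similar range of substrates, had estimated differences in the same direction, at a higher level. Its lowest, median and highest values were 1.72, 3.26 and 5.65 CPM in Control, 2.20, 3.95 and 7.25 CPM in Red, and 1.69, 3.57 and 6.67 CPM in Tangerine. The log2 fold change was 0.38 in Red (interval -0.05 to 0.81, adjusted p = 0.445 by edgeR) and 0.31 in Tangerine (interval -0.12 to 0.74, adjusted p = 0.984). When the reads of Gsta1, Gsta2, Gm3776 and Gm10639 were summed, the mean was 5.76 ± 1.97 CPM in Control, 7.66 ± 2.85 in Red and 7.34 ± 2.81 in Tangerine (SD, n = 12 each). That sum differed by 0.42 on the log2 scale in Red (adjusted p = 0.384 by edgeR) and by 0.35 in Tangerine (adjusted p = 0.954).

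Gsta3 carried most of the alpha class reads and differed little. It encodes the alpha enzyme that detoxifies the aflatoxin epoxide in mice. Values ran from 158 over a median of 197 to 290 CPM in Control, from 151 over 194 to 234 CPM in Red, and from 164 over 212 to 266 CPM in Tangerine. The difference was -0.05 in Red (interval -0.21 to 0.11) and 0.05 in Tangerine (interval -0.11 to 0.21) on the log2 scale, so changes beyond these limits in either direction lay outside the 95% intervals.

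Gsta4 encodes the enzyme that conjugates 4-hydroxynonenal, a product of lipid peroxidation. Values ran from 25.9 over a median of 32.8 to 49.99 CPM in Control, from 32.0 over 37.3 to 45.1 CPM in Red, and from 33.6 over 36.4 to 57.2 CPM in Tangerine. All 12 Tangerine libraries and 10 of 12 Red libraries lay above the Control median, but 11 of 12 Tangerine libraries lay below the highest Control library. The log2 fold change was 0.19 in Tangerine (interval 0.01 to 0.38, adjusted p = 0.865 by edgeR) and 0.11 in Red (interval -0.07 to 0.29, adjusted p = 0.629). The highest Control library was Control 137, without which the difference was 0.25 in Tangerine (adjusted p = 0.491) and 0.17 in Red (adjusted p = 0.319). Control 137 was the highest Control library for 5 of the 10 members (Gsta2, Gsta4, Gstm1, Gstt1 and Gstz1), and its summed Kupffer cell and endothelial markers were 85.3 and 80.7 CPM, against Control medians of 211 and 206 CPM. The part of these cell types in the members' values was not tested. Over all settings the smallest adjusted p of any member was 0.0539, for Gsta4 in Red against Control by limma-voom with sample weights, where the log2 fold change was 0.22.

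**Figure D2:**
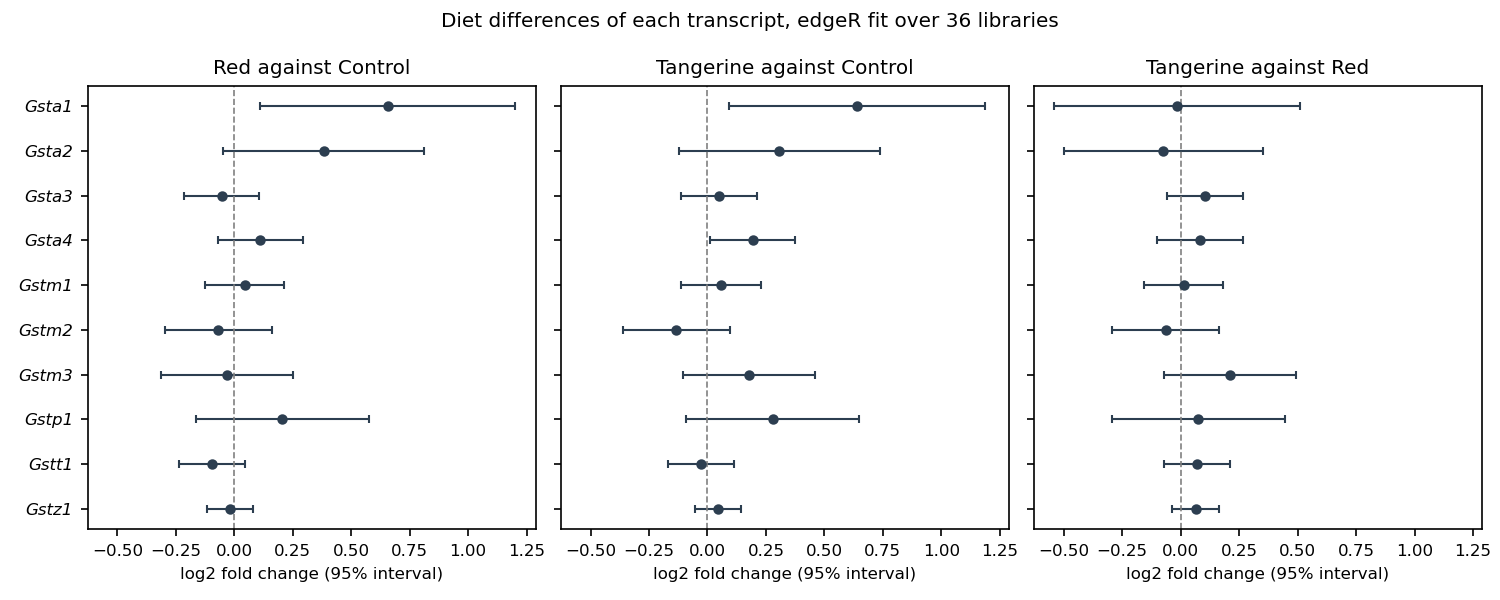
Log2 fold change with its 95% interval (horizontal axes) for each transcript, for Red and for Tangerine relative to Control and for Tangerine relative to Red, from the edgeR fit of 36 libraries. The interval of Gsta1 lies above 0 in both comparisons with Control and that of Gsta4 in Tangerine against Control, and neither passed after adjustment.

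The mu class was led by Gstm1, one of the major cytosolic transferases of mouse liver. Its values ran from 538 over a median of 645 to 950 CPM in Control, from 597 over 685 to 823 CPM in Red, and from 521 over 713 to 837 CPM in Tangerine. The mean was 671 ± 124, 692 ± 66.2 and 699 ± 102 CPM in that order of diets (SD, n = 12 each). The difference from Control was 0.04 in Red (interval -0.12 to 0.21) and 0.06 in Tangerine (interval -0.11 to 0.23) on the log2 scale, which corresponds to between 0.917 and 1.17 times the Control level over both diets.

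Gstm2 and Gstm3, lower relatives of Gstm1 in the same gene cluster on chromosome 3, pointed in different directions in Tangerine. Gstm2 ran from 22.7 over a median of 37.0 to 52.1 CPM in Control, from 29.9 over 35.1 to 46.2 CPM in Red, and from 26.0 over 33.9 to 48.2 CPM in Tangerine, a log2 difference of -0.13 in Tangerine (interval -0.36 to 0.10). Gstm3 ran from 25.3 over a median of 34.6 to 55.1 CPM in Control, from 26.6 over 33.0 to 57.4 CPM in Red, and from 19.1 over 39.4 to 63.4 CPM in Tangerine, a log2 difference of 0.18 in Tangerine (interval -0.10 to 0.46). Both intervals include 0. Without Tangerine 195, the library with the highest Gstm3, the Gstm3 difference was 0.10, and without any other single library it was between 0.14 and 0.25. The Tangerine libraries held both the lowest and the highest Gstm3 value of all 36. With Gstm1, Gstm3 and their pseudogene copies Gstm2-ps1 and Gm8834 summed, the log2 difference was 0.06 in Red and 0.08 in Tangerine (adjusted p = 0.785 and 1 by edgeR).

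Gstp1, the pi class enzyme, is known in mice for a higher level in male than in female liver. It was the most variable of the abundant members. Values ran from 168 over a median of 252 to 413 CPM in Control, from 131 over 303 to 497 CPM in Red, and from 190 over 342 to 453 CPM in Tangerine. Red held both the lowest and the highest library of the study, with 2 libraries above and 2 below all Control libraries. The log2 fold change was 0.21 in Red (interval -0.16 to 0.57, adjusted p = 0.664 by edgeR) and 0.28 in Tangerine (interval -0.09 to 0.65, adjusted p = 0.967). The difference in Red was 0.12 without Red 156, its highest library, 0.13 without Red 157, and up to 0.28 without Red 177, its lowest. Summed with Gstp2 it was 0.19 in Red and 0.26 in Tangerine, and neither passed the test.

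Gstt1, the theta enzyme, acts on small halogenated compounds such as dichloromethane. It ran from 201 over a median of 233 to 336 CPM in Control, from 190 over 229 to 244 CPM in Red, and from 194 over 232 to 291 CPM in Tangerine. In Red 9 of 12 libraries lay below the Control median, and the log2 difference was -0.10 (interval -0.24 to 0.05, adjusted p = 0.577 by edgeR). Without Control 137, the highest library, that difference was -0.04.

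Gstz1 isomerises maleylacetoacetate, a late step in tyrosine breakdown, and was the steadiest member. It ran from 648 over a median of 718 to 856 CPM in Control, from 660 over 718 to 812 CPM in Red, and from 661 over 755 to 819 CPM in Tangerine. The fold against Control was 0.987 in Red (95% interval 0.921 to 1.06) and 1.03 in Tangerine (interval 0.963 to 1.11). Its coefficient of variation over the 36 libraries was 7.55%, against 53.1% for Gsta1, 37.5% for Gsta2 and 31.1% for Gstp1.

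The 2 tomato diets were also compared directly. The members' log2 differences in Tangerine against Red ran from -0.07 (Gsta2, interval -0.50 to 0.35) to 0.21 (Gstm3, interval -0.07 to 0.49, adjusted p = 0.488 by edgeR). For Gsta1 the interval of -0.54 to 0.51 is wide in either direction, while for Gstz1 it was -0.04 to 0.16.

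Levels differ far more between members than between diets. Per kilobase of principal transcript the order of mean levels was Gstm1 (533 ± 76.0 CPM per kb, SD, n = 36), Gstz1 (440 ± 33.2), Gstp1 (366 ± 114), Gstt1 (224 ± 27.8), Gsta3 (138 ± 19.5), Gsta4 (37.7 ± 6.40), Gstm2 (34.4 ± 6.79), Gstm3 (28.5 ± 7.26), Gsta2 (4.51 ± 1.69) and Gsta1 (1.47 ± 0.782). Gstt1 exceeded Gsta3, and Gsta3 exceeded Gsta4, in 36 of 36 libraries. Neighbours whose means lay within their SDs were Gstm1 and Gstz1, Gstz1 and Gstp1, Gsta4 and Gstm2, and Gstm2 and Gstm3. Gsta4 exceeded Gstm2 in 25 of 36 libraries and Gstz1 exceeded Gstp1 in 27 of 36. The place of Gstz1 depends on the length used: with the union of all annotated exons it fell to place 4, below Gstp1 and Gstt1, and Gstm2 and Gstm3 changed places. The levels of members with near-identical copies, such as Gsta1 and Gsta2, may also depend on how shared reads were counted, which is not given.

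**Figure D3:**
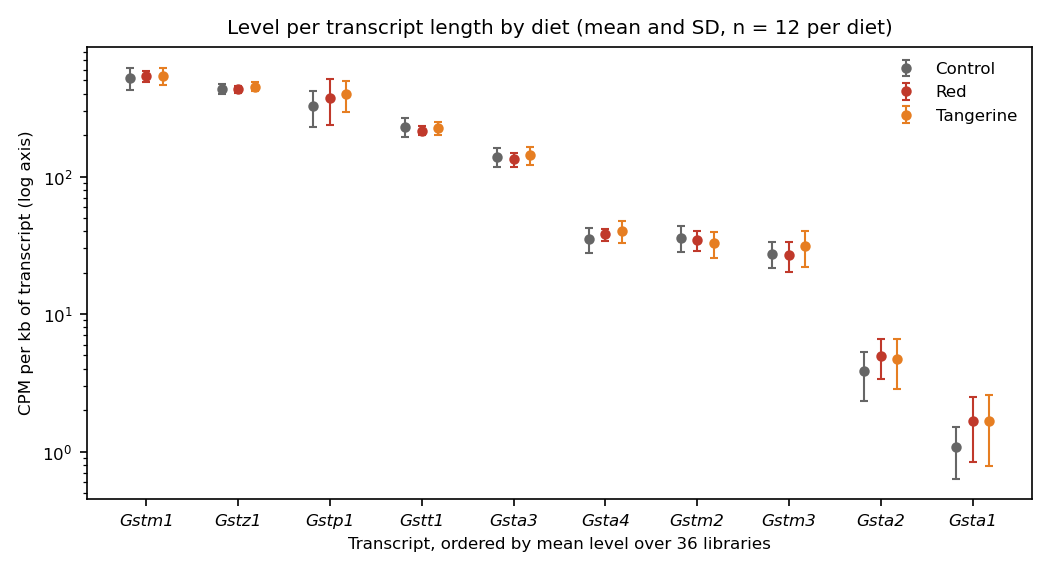
Mean CPM per kb of principal transcript and SD of 12 libraries (vertical log axis) for each transcript and diet. The order spans Gstm1 at 533 to Gsta1 at 1.47 CPM per kb over all libraries, with the 3 diets side by side at each transcript.

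As a share of the members' summed CPM per kb of principal transcript, the listed mu genes held 32.9% and Gstz1 24.5% over all libraries. Gstp1 held 20.04%, Gstt1 12.4% and the listed alpha genes 10.1%. Unlisted genes of these classes, such as Gstp3 at a mean of 335 CPM, are not in the shares. The shares therefore do not rank the classes as wholes. The summed CPM, not divided by length, was 2216 ± 229 in Control, 2248 ± 139 in Red and 2334 ± 176 in Tangerine (SD, n = 12 each), and the ranges overlapped.

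Within a diet some of the transferases varied together from mouse to mouse. After removal of the diet means, 13 of the 45 pairs of members had a correlation of log2 CPM with an adjusted p under 0.05 (permutation within diets, n = 36, two-sided, Benjamini-Hochberg over 45 pairs), and all 13 were positive. The 3 mu genes formed a group, with r = 0.68 for Gstm1 and Gstm2, 0.67 for Gstm1 and Gstm3 and 0.65 for Gstm2 and Gstm3. Spearman's rho for these pairs was 0.66, 0.65 and 0.67. Without the 2 libraries farthest from the median, r was 0.62, 0.64 and 0.58. Within single diets r ran from 0.46 to 0.81 over these pairs. Gstm1 shared 10% of its sequence runs with Gstm3 and 0.887% with Gstm2, and no run shared by Gstm2 and Gstm3 was found. Gstm1 and Gstm3 also share runs with the copies Gstm2-ps1 and Gm8834. The part of shared reads in the relations of the mu genes was not tested.

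Gsta1 and Gsta2 gave r = 0.75 and rho = 0.75 (permutation p = 1e-05 for both, the smallest that 100000 permutations can give, adjusted p = 0.00045), with 0.72 in Control, 0.76 in Red and 0.78 in Tangerine. The genes share the sequence printed above, and the part of shared reads in this relation was not tested. Gsta2 also moved with Gsta4 (r = 0.62) and Gstt1 (r = 0.57), with which it shares no 50-base run. In Red, however, r of Gsta2 and Gsta4 was 0.08, against 0.74 in Control and 0.77 in Tangerine, and the difference was not tested. Gstt1 moved with Gstm1 and with Gstz1 (r = 0.63 for both). The remaining pairs of the 13 were Gsta1 with Gsta4, Gsta2 with Gsta3, Gsta2 with Gstz1, Gsta4 with Gstm1 and Gsta4 with Gstp1, with r from 0.40 to 0.45. Of these remaining pairs, only Gsta4 with Gstp1 also passed by Spearman's rho, and the others had adjusted p from 0.0562 to 0.157 by permutation. In Red r was -0.0051 for Gsta1 with Gsta4 and -0.09 for Gsta2 with Gstz1, against 0.56 to 0.63 in Control and Tangerine. For Gsta4 with Gstm1 r was 0.27 without the 2 farthest libraries. By rho 10 pairs passed, among them Gsta1 with Gstt1, which is not among the 13. By Pearson's r 11 passed without Red 186 and Tangerine 216.

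**Figure D4:**
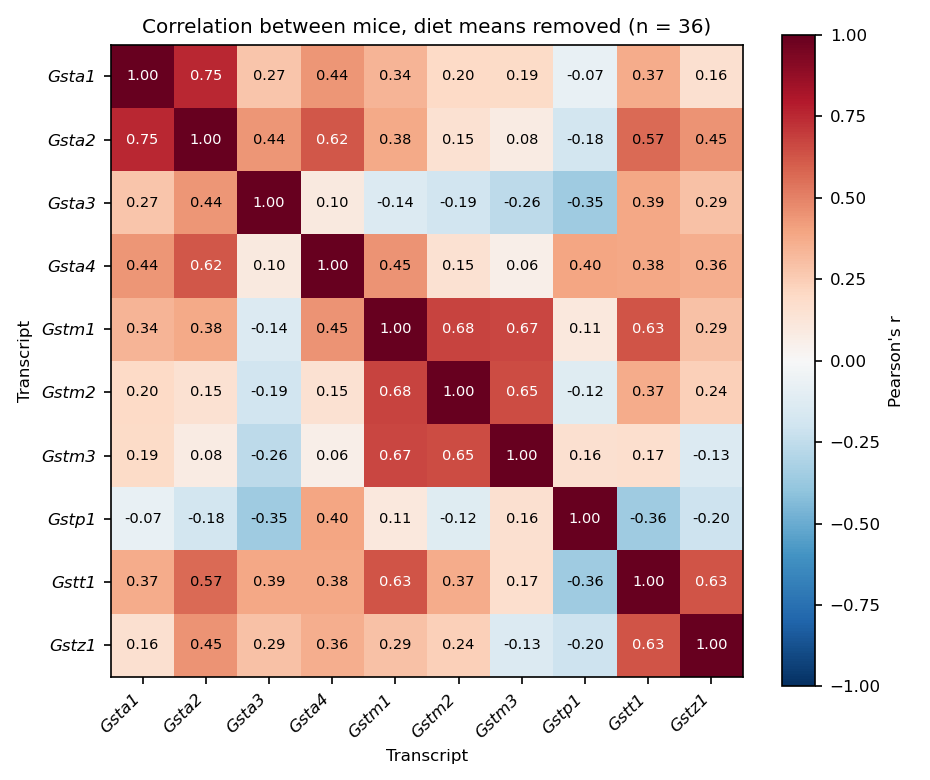
Pearson's r (colour and number) between the log2 CPM of each pair of transcripts over 36 libraries with diet means removed. The mu genes and the pair Gsta1 and Gsta2 hold the highest values, and the row of Gstp1 has 1 value at 0.40 and the others between -0.36 and 0.16.

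Gstp1 stood outside these groups and followed its copy. Its only pair past the threshold was with Gsta4 (r = 0.40, rho = 0.45, r = 0.33 without the 2 farthest libraries), whereas r with Gstp2 was 0.86 and rho 0.85 (r = 0.88 without the 2 farthest libraries). In Control 245, however, Gstp2 was 71.6 CPM, the highest Control value, while Gstp1 was 237 CPM, below the Control median. The next copy, Gstp3, gave r = 0.27 with Gstp1.

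**Figure D5:**
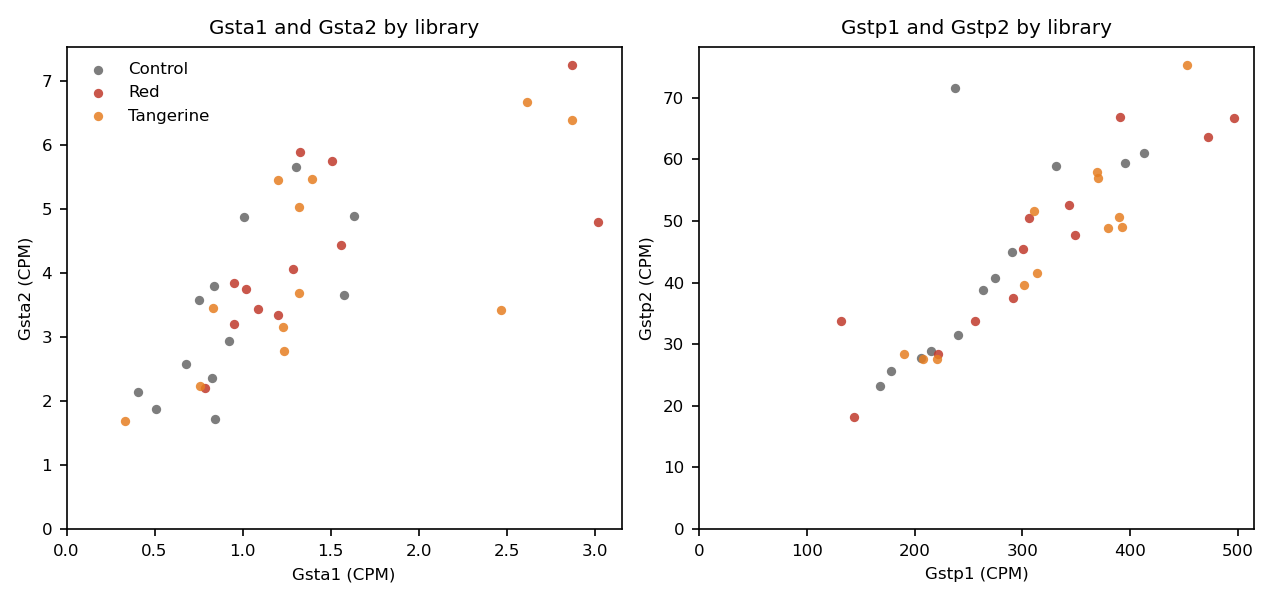
CPM of Gsta2 against Gsta1 (left) and of Gstp2 against Gstp1 (right), 1 point per library, coloured by diet. Both pairs rise together, with r of 0.75 and 0.86 on the log2 scale after removal of diet means, and 1 Control library lies far above the others for its Gstp1 value. Both pairs share sequence, and the part of shared reads was not tested.

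The genes most like each member over the 36 libraries, by Pearson's r of log2 CPM with diet means removed, are given as a description with no test. For Gstp1 they were Selenbp2 (r = 0.90) and Serpina1e (r = 0.88), and both had a wide spread between mice, 219 ± 119 and 4177 ± 1872 CPM (SD, n = 36). Gstz1 was most like Echdc3 (0.87) and Gchfr (0.85), and Gchfr, which encodes a regulator of tetrahydrobiopterin synthesis, was also the first neighbour of Gstt1 (0.77, followed by Fkbp8 at 0.74). For Gsta3 they were the carboxylesterase gene Ces1d (0.79) and the steroid reductase gene Akr1d1 (0.76), and for Gsta4 Trappc6a and the peroxiredoxin gene Prdx2 (0.78 for both). Gstm1 was closest to its copy Gstm2-ps1 (0.90) and to Eif4ebp1 (0.78), Gstm2 to the glycolytic gene Eno1 and to the pseudogene Gm3222 (0.80 for both), and Gstm3 to Pdzk1ip1 and Gstm6 (0.75 for both). The values were lower for Gsta1, with Ier5 (0.68) and Cep78 (0.64), and for Gsta2, with Lrrfip2 and Adssl1 (0.57 for both). Some relations were weak or absent within 1 diet. In Red r was -0.015 for Gstm1 with Eif4ebp1, -0.21 for Gsta2 with Lrrfip2 and 0.18 for Gstt1 with Fkbp8. In Control and Tangerine these pairs had r from 0.65 to 0.93. In Control r was 0.33 for Gsta1 with Ier5 and for Gstm3 with Pdzk1ip1. The differences between diets were not tested. Gstm1 shared 17.3% of its sequence runs with Gstm2-ps1, and Gstm3 shared 6.02% with Gstm6. The part of shared reads in these likenesses was not tested.

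A score of circadian clock genes differed between the diets in these libraries, with a mean of 0.83 ± 2.79 in Control, -2.54 ± 2.15 in Red and 1.71 ± 2.29 in Tangerine (SD, n = 12 each). The score is the first principal component of 13 clock genes, high where Dbp, an output gene of the clock, is high. None of the 10 members was related to it with an adjusted p under 0.05 within diets (permutation, n = 36). The strongest was Gstm3 (r = -0.34, rho = -0.37, adjusted p = 0.340 and 0.320). With the score as a covariate the Gsta1 difference in Tangerine against Red was 0.48 on the log2 scale (adjusted p = 0.535 by edgeR), against -0.02 without it. In Tangerine against Control the Gsta1 difference was 0.78 with the score (adjusted p = 0.492 by edgeR), against 0.64 without it. In Red against Control it was 0.30 with the score (adjusted p = 0.730 by edgeR), against 0.66 without it.

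Of 19 other transferase genes in the table, 15 were tested and 0 passed in any comparison by edgeR, with 1 at an unadjusted p under 0.05, Gstt2 in Tangerine against Red. Gstt2, a theta gene beside Gstt1, was 28.0 ± 6.79 CPM in Control, 25.0 ± 4.98 in Red and 32.2 ± 12.1 in Tangerine (SD, n = 12 each), and its log2 difference of 0.36 in Tangerine against Red had an adjusted p of 0.275 by edgeR. Gstt2 was related to the clock score (r = 0.68, rho = 0.66, adjusted p = 0.00015 over 15 genes by permutation, r = 0.63 without the 2 farthest libraries), with r of 0.80 in Control, 0.28 in Red and 0.84 in Tangerine. Gstm4, a mu gene, had r = -0.44 with the score (adjusted p = 0.0518 by permutation) and rho = -0.47 (adjusted p = 0.0284), with r = -0.58 without the 2 farthest libraries and -0.01 in Red alone. Gstcd, a gene with a transferase-like C-terminal domain, had r = -0.52 with the score (adjusted p = 0.0190 by permutation, rho = -0.47), and 0.16 in Red alone.

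Mgst1, the microsomal transferase of the endoplasmic reticulum, had the highest CPM of all listed transferases, at 2507 ± 259 in Control, 2399 ± 204 in Red and 2567 ± 203 in Tangerine (SD, n = 12 each). Gstp3 averaged 335 CPM, the mitochondrial and peroxisomal Gstk1 133 CPM, and Gstm6, Gstm7 and Gstm4 averaged 92.4, 71.6 and 51.1 CPM over all libraries. Gstm5, Mgst3, Gstt3 and the prostaglandin synthase gene Hpgds averaged 7.36, 8.85, 2.53 and 0.830 CPM. The copies Gstp2, Gm10639 and Gm3776 averaged 44.8, 0.942 and 0.760 CPM. Gstt4 had at most 1 count in a library, and Mgst2 had at most 3 counts in every library but Red 186, which had 34. Gsto1 and Gsto2 were listed at 0 in all 36 libraries. So were Gnmt, Hpd and Hsd11b1, genes that adult liver is known to express strongly and that were chosen after their values were seen, so a 0 in this table is given only as a listed value.

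Among the genes of the pathway around the transferases 5 passed the test, 4 of them in Tangerine against Red, where 1.71% of all genes were called, and 1 in Red against Control, where 0.149% were. Of 13 tested genes of glutathione synthesis and turnover, 1 passed, in Tangerine against Red. Gclc, the catalytic subunit of the rate-limiting enzyme of glutathione synthesis, was 280 ± 58.3 CPM in Control, 370 ± 60.4 in Red and 274 ± 62.8 in Tangerine (SD, n = 12 each). It was lower in Tangerine than in Red by a log2 fold change of -0.43 (SE 0.113, adjusted p = 0.0359 by edgeR), and 10 of 12 Tangerine libraries lay below the Red median. The 5 tested glutathione peroxidase genes held 0 calls in any comparison. Prdx6, which reduces phospholipid hydroperoxides with glutathione, had a log2 difference of 0.18 in Tangerine against Red (adjusted p = 0.0757), and Gpx1, the cytosolic peroxidase, one of 0.18 in Tangerine against Control (adjusted p = 0.920).

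Of 11 tested genes of conjugate export and mercapturate handling, Acy1, an aminoacylase that removes the acetyl group from mercapturates, was higher in Tangerine than in Red (38.0 ± 6.01 against 30.9 ± 2.24 CPM, SD, n = 12 each, log2 fold change 0.30, adjusted p = 0.0379 by edgeR). Of 14 tested NRF2 target genes, Osgin1, an oxidative stress response gene, was higher in Red than in Control (183 ± 77.9 against 79.4 ± 31.5 CPM, log2 fold change 1.21, adjusted p = 0.0167), and Nqo1, a standard target, was not called (3.24, 3.19 and 3.40 CPM in Control, Red and Tangerine). Of 16 regulators, Cebpa, a hepatocyte transcription factor (log2 fold change 0.31, adjusted p = 0.0452), and Maff, a small MAF partner of NRF2 (0.90, adjusted p = 0.0312), were higher in Tangerine than in Red. The gene for NRF2 itself, Nfe2l2, was not called in any comparison. None of the 14 NRF2 targets was called in Tangerine against Control, where their highest log2 fold change was 0.72 (smallest adjusted p = 0.587 by edgeR). Nor was any called in Tangerine against Red (smallest adjusted p = 0.324 by edgeR). The Osgin1 call is therefore not shown to be particular to Red. These lists do not count as independent evidence, since their genes were chosen with results of these data known.

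The 5 calls among pathway genes were lost with the clock score in the model, and so were most calls elsewhere. Over all 14068 genes the calls in Tangerine against Red went from 241 to 0. Those in Red against Control went from 21 to 3. The score itself differed between the diets, as given above. With the score as covariate the adjusted p was 0.621 for Gclc, 0.690 for Acy1, 0.695 for Cebpa, 0.916 for Maff and 0.312 for Osgin1, and the log2 fold changes were -0.16, 0.09, 0.09, 0.07 and 0.84. The 4 calls in Tangerine against Red were also lost with the mouse number as covariate (adjusted p from 0.0952 to 0.113), with no low-count filter (0.0526 to 0.0630) and without Red 186 and Tangerine 216 (0.0910 to 0.135). In these settings 32 of 14068, 136 of 27335 and 86 of 14060 genes were called in that comparison. Without Red 186, Red 199 and Tangerine 192 the adjusted p was 0.0799 for Gclc and 0.114 for Cebpa. Of 11 settings, Acy1 and Maff were called in 7, Gclc and Cebpa in 6, and Osgin1 in 10. When each library was left out in turn, Osgin1 was called in 36 of 36 fits, Maff in 27, Gclc in 24, Acy1 in 23 and Cebpa in 19.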

How the data were processed

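Liver RNA was made into directional libraries, per the labels' protocols. The authors deposited 1 table of gene counts that were not normalized, with a column for each of 36 libraries. The submitters' processing notes name FastQC, Trimmomatic, edgeR and GRCm38.p6. The aligner, the annotation release, the strand setting and the handling of reads shared by several genes are not given in the sources used here. Symbols were matched by Ensembl identifier to GENCODE M21 for 53620 of 53715 identifiers. The other 95 held 0.00177% of counts and stayed in the fit only where they passed the filter.

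Counts were fitted with edgeR 4.0.16 (R 4.3.3), using filterByExpr with default cutoffs (10 reads in a library, 15 in all, share 0.7), TMM scaling and the robust quasi-likelihood F test over all 36 libraries, with 33 residual degrees of freedom and no covariate. P-values were adjusted by Benjamini-Hochberg over 14068 genes within each comparison, with a threshold of 0.05. CPM were computed from the counts and TMM library sizes, log2 CPM with a prior count of 2. Standard errors were taken from the F statistic. The fit was tested on simulated data. Other settings used DESeq2 1.42.0, limma 3.58.1 and sva 3.50.0 (5 surrogate variables used of 9 estimated). Relations between libraries were tested with 100000 permutations within diets. Sequences came from GENCODE M21 transcripts and the RefSeq upstream table (GRCm38.p6), which held 9 of the 10 members.

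No mouse number occurred in more than 1 diet, so libraries were not paired. The members, the gene lists and the tests were chosen with earlier results of these data known. Named genes were all members, all other listed transferases, every gene of the other pathway lists past the threshold or otherwise the 2 genes of a list with the smallest p, and the 2 most similar genes of each member whose mean log2 CPM reached 1. Gpx1, Nqo1 and Nfe2l2 were added outside that rule, after their values were seen.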

Additional observations from a re-analysis of the deposited data

How the results depend on the processing

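The number of members past the threshold was 0 in all 4 comparisons under the 11 settings other than leaving out a library (size factors of DESeq2, a stricter filter or none, a covariate for mouse number or for the clock, surrogate variables, a fit of the compared groups alone, DESeq2, limma-voom, and without 2 sets of libraries), and in the 36 fits that left out 1 library each. The set of Red 186, Red 199 and Tangerine 192 and the sums over copies were chosen after seeing the data. The fit of the compared groups alone covers the 3 comparisons of single diets. DESeq2 gave no adjusted p for Gsta1 and Gsta2 in Tangerine against Control and for both tomato diets, 4 values in all. The stricter filter removed Gsta1. The number of all genes called varied widely between settings. In Red against Control it was 3 of 14068 with the clock score, 507 with surrogate variables and 1482 by limma-voom. In Tangerine against Red it was 0, 867 and 732 in the same settings. No paired analysis was possible because the diets share no mouse number.

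Differences near 0 changed sign in 64 of 1886 recomputed values. With DESeq2 size factors, no filter, the mouse number, surrogate variables, DESeq2 and without the 3 libraries, Gsta3 for both tomato diets was 0.0012, 0.0035, 0.00094, 0.032, 0.0012 and 0.00931. With the clock score, Gstz1 in Red was 0.026, Gstm2 in Tangerine against Red 0.016, Gsta1 there 0.48, and Gstm3 for both tomato diets -0.00524. With the mouse number Gstm1 in Tangerine against Red was -0.00746. With surrogate variables Gsta3 in Red was 0.011, Gstt1 in Tangerine 0.0072, Gstm2, Gsta1 and Gstp1 in Tangerine against Red 0.035, 0.047 and -0.022, and Gstm3 for both tomato diets -0.00973. With limma-voom, Gstm3, Gstm2 and Gstz1 in Red were 0.036, 0.0060 and 0.013, Gstt1 in Tangerine 0.00695, and Gstm1 and Gstp1 in Tangerine against Red -0.00361 and -0.058. Without Red 186 and Tangerine 216, Gsta1 and Gstp1 in Tangerine against Red were 0.12 and -0.020. Without the 3 libraries, Gsta1 and Gsta2 there were 0.23 and 0.067, and Gstm3 for both tomato diets -0.0022. With copies summed, the value that holds Gstm3 in Red was 0.063. The causes were not tested.

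Leaving out 1 library at a time gave -0.15 to 0.14 for Gsta1, -0.16 to 0.019 for Gsta2 and -0.013 to 0.046 for Gstm1 in Tangerine against Red. In Red it gave -0.082 to 0.0048 for Gsta3, -0.12 to 0.039 for Gstm3 and -0.036 to 0.0055 for Gstz1. Gstt1 in Tangerine ran from -0.058 to 0.028. For both tomato diets Gsta3 ran from -0.030 to 0.057 and Gstz1 from -0.00013 to 0.038. Depth limits Gsta1, with 9 to 107 reads per library.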
